A study of Tachysurus vachellii and Tachysurus fulvidraco x Tachysurus vachelli and Tachysurus fulvidraco with 9 samples.

Results

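TEF, nfil3 and the period genes PER1, PER2 and PER3 are among the output and feedback genes of the circadian clock. Rows of the liver transcript table whose gene name equals one of these symbols, with letter case and a trailing a or b ignored, gave 15 assembled rows of 57710 and 5 gene symbols of 11135. Only 17769 of the 57710 rows carry a gene name, so rows without one could not be matched. TEF had 3 rows, nfil3 had 3, PER1 and PER2 had 4 each, and PER3 had 1. The level of a symbol is the sum of its rows, because an assembled row may stand for the transcript of only 1 species.

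Livers of juvenile catfish gave 9 libraries of poly(A) RNA, 3 from each line. The hybrid Huangyou-1 came from eggs of P. fulvidraco and sperm of P. vachelli, and the other lines were pure P. vachelli and pure P. fulvidraco, all from parents given hormone before stripping. Eggs of the lines hatched at 28 °C, the young were fed Artemia and then compound feed, and each line grew in 3 aquaria of its own with 200 fish in each. No agent or altered allele separates the lines. Line and aquarium cannot be told apart, and whether a library holds 1 fish or several is not in the labels, so the p-values measure only the spread between these libraries, which may be technical.

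In the clock of vertebrate cells, CLOCK and ARNTL proteins switch on the PER and CRY genes, and PER and CRY proteins switch CLOCK and ARNTL off again. The PAR bZIP factors TEF, HLF and DBP bind the D-box of their targets as activators, and NFIL3 binds the same element as a repressor. In zebrafish, per2 and tef are also switched on by light. The RNA of most of these genes swings over the day in liver, so the hour at which a fish is killed bears on every level given here. Of the 9 library labels, 0 give an hour of sampling, a light cycle or a time since the last meal. Whether the lines were sampled at the same hour is thus unknown, and line and sampling hour cannot be told apart in any difference below.

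Hepatocyte markers were abundant in every library. The 14 of 18 listed hepatocyte genes in the table summed to 64844 to 69986 TPM (a level scaled to library and transcript length) in hybrid, 43057 to 48474 TPM among P. vachelli and 55684 to 60822 TPM among P. fulvidraco libraries. HPX alone averaged 24026 TPM in hybrid, 4639 TPM among P. vachelli and 12628 TPM among P. fulvidraco libraries. The list was split: in hybrid against P. vachelli, 6 of the 14 were called higher and 4 lower (limma). Of all symbols, 13.7% were called higher and 16.9% lower there. Other cells were present too: 10 of 15 acinar pancreas markers summed to 6090 to 8127 TPM in hybrid, 2037 to 3697 TPM among P. vachelli and 2517 to 6415 TPM among P. fulvidraco libraries. The 7 of 11 erythrocyte markers in the table summed to 7144 to 9356 TPM in hybrid, 6275 to 9254 TPM among P. vachelli and 3594 to 5366 TPM among P. fulvidraco libraries. No listed marker in the table was at 0 in all 9 libraries. In such bulk tissue, fewer cells of a type and less RNA per cell cannot be told apart.

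The clearest line difference was in nfil3, the D-box repressor, which was low in P. vachelli. It had 84.74, 53.63 and 83.34 TPM in hybrid libraries, 10.10, 13.85 and 21.58 TPM in P. vachelli libraries, and 62.44, 51.27 and 85.14 TPM in P. fulvidraco libraries. Every P. vachelli library lay below every library of the other lines, and the hybrid and P. fulvidraco ranges overlapped. The means were 73.9 ± 17.6 TPM in the hybrid, 15.2 ± 5.85 TPM for P. vachelli and 66.3 ± 17.3 TPM for P. fulvidraco (SD, n = 3 each). The log2 difference, taken on log2(TPM + 1) here and throughout, was 2.24 ± 0.29 (SE) for hybrid minus P. vachelli, a 4.73-fold higher level on that scale (limma, Benjamini-Hochberg adjusted p = 0.000658 over all symbols). For P. vachelli minus P. fulvidraco it was -2.09 ± 0.29 (limma adjusted p = 0.000372), and for hybrid minus P. fulvidraco 0.16 with a 95% interval of -0.50 to 0.81 (limma adjusted p = 0.735). The hybrid lay 1.20 ± 0.25 above the mean of the parental log2 levels (limma adjusted p = 0.0199). That last call was lost without hybrid 1 or without hybrid 3 (adjusted p = 0.0602 to 0.0758). It was also lost with the mid-parent taken on the linear scale, while the call on nfil3 in hybrid against P. vachelli held in all 21 alternatives. The call between the parents held in 20 of 21 and was lost without the highest row of the symbol, where the difference was -0.99 (limma adjusted p = 0.103).

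TEF, an activator at the same D-box, differed in the same direction by less. It had 20.75, 25.54 and 22.93 TPM in hybrid libraries, 14.64, 14.97 and 13.77 TPM in P. vachelli libraries, and 15.92, 19.58 and 25.79 TPM in P. fulvidraco libraries. All P. vachelli libraries were below all others, P. fulvidraco 1 came closest to them, and the hybrid and P. fulvidraco ranges overlapped. The log2 difference was 0.63 ± 0.16 for hybrid minus P. vachelli (limma adjusted p = 0.0170) and -0.45 ± 0.16 for P. vachelli minus P. fulvidraco (limma adjusted p = 0.0459). The hybrid did not pass the test against P. fulvidraco (0.19, 95% interval -0.18 to 0.55, limma adjusted p = 0.429) or against the mid-parent (0.41, limma adjusted p = 0.0932). The call between hybrid and P. vachelli held in 17 of 21 alternatives and was lost without hybrid 2 or without P. vachelli 3 (adjusted p = 0.0579 to 0.0605). It was also lost without the highest row of the symbol, which is described as D site-binding protein, and with rows grouped by protein description (limma adjusted p up to 0.238). That between the parents was lost when any library but P. fulvidraco 1 was left out (adjusted p = 0.0527 to 0.124), with the difference at -0.27 without P. fulvidraco 3 and at -0.79 without P. fulvidraco 1 and 2 together.

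Among the symbol sums of the period genes, whose proteins hold back CLOCK and ARNTL, PER3 followed nfil3 and TEF, PER2 did not, and PER1 passed no test. With rows grouped by protein description, given further below, PER1 passed tests and PER2 passed none. PER3 had 5.67, 4.57 and 7.88 TPM in hybrid libraries, 3.30, 4.13 and 3.19 TPM in P. vachelli libraries, and 6.0, 6.29 and 8.01 TPM in P. fulvidraco libraries. P. vachelli was again below both other lines with no overlap, and hybrid 2 came closest to P. vachelli 2. The log2 difference was 0.61 ± 0.19 for hybrid minus P. vachelli (limma adjusted p = 0.0376) and -0.77 ± 0.19 for P. vachelli minus P. fulvidraco (limma adjusted p = 0.00834). Hybrid minus P. fulvidraco was -0.16 (95% interval -0.59 to 0.27, limma adjusted p = 0.577). The call on hybrid against P. vachelli was lost without hybrid 1, hybrid 3, P. vachelli 1, P. vachelli 3 or P. fulvidraco 2 (adjusted p = 0.0541 to 0.114), and that between the parents held in all 21 alternatives. Of these, leaving out the highest row of a symbol could not change PER3, which has 1 row.

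PER2 was low in P. fulvidraco instead. It had 26.10, 37.06 and 32.29 TPM in hybrid libraries, 31.35, 31.68 and 31.91 TPM in P. vachelli libraries, and 16.45, 24.44 and 25.59 TPM in P. fulvidraco libraries. P. fulvidraco lay below both other lines with no overlap, though hybrid 1 was barely above P. fulvidraco 3. P. vachelli minus P. fulvidraco was 0.52 ± 0.18 (limma adjusted p = 0.0355), and hybrid minus P. fulvidraco, nearly as large at 0.51 ± 0.18, did not pass (limma adjusted p = 0.0623). Hybrid minus P. vachelli was -0.01 (95% interval -0.40 to 0.39, limma adjusted p = 0.981). It was called in 1 of 21 alternatives, without the highest row of the symbol, at -0.59 (limma adjusted p = 0.0373). The call between the parents was lost without P. vachelli 1, P. vachelli 2, P. vachelli 3 or P. fulvidraco 1 (adjusted p = 0.0773 to 0.0899), with the difference at 0.33 without P. fulvidraco 1 and at 0.30 without P. fulvidraco 1 and 2 together. The hybrid was called above P. fulvidraco without hybrid 1 or without P. fulvidraco 3 (adjusted p = 0.0429 to 0.0482).

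PER1, summed by symbol, showed no line difference past the test. Its sum was 24.96, 26.42 and 36.05 TPM in hybrid libraries, 29.46, 28.12 and 25.13 TPM in P. vachelli libraries, and 23.95, 26.63 and 39.94 TPM in P. fulvidraco libraries. All 3 ranges overlapped, and the highest values were those of P. fulvidraco 3 and hybrid 3. Hybrid minus P. vachelli was 0.06 (95% interval -0.39 to 0.51), hybrid minus P. fulvidraco -0.03 (-0.48 to 0.42) and P. vachelli minus P. fulvidraco -0.09 (-0.55 to 0.36). Differences as large as the ends of these intervals cannot be told from 0 here.

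**Figure D1:**
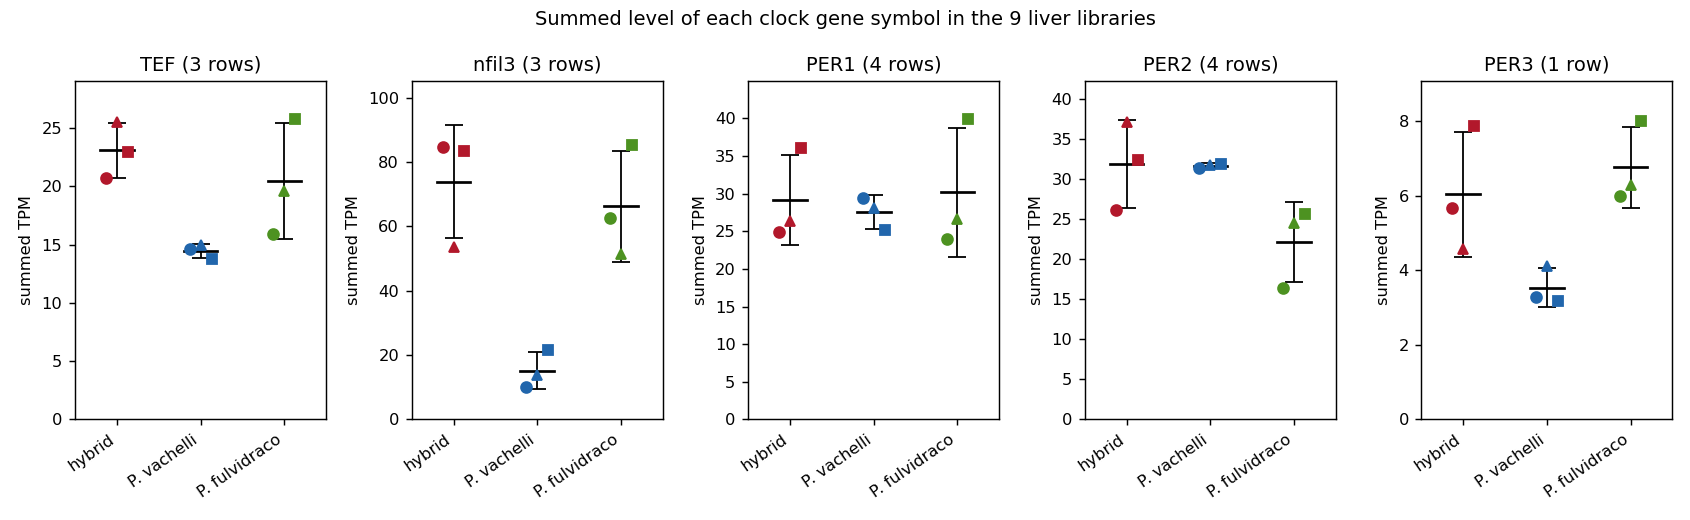
Summed TPM of each gene symbol by line (x axis: hybrid, P. vachelli, P. fulvidraco); circles, triangles and squares are libraries 1, 2 and 3, horizontal lines the mean and bars 1 SD (n = 3). P. vachelli libraries sit lowest for TEF, nfil3 (10.10 to 21.58 TPM) and PER3, P. fulvidraco libraries lowest for PER2, and the PER1 ranges overlap.

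Counted together, 3 of the 5 symbols were called higher in the hybrid than in P. vachelli and 0 lower, in a comparison that called 13.7% of all 10813 tested symbols higher and 16.9% lower. Against P. fulvidraco 0 of 5 were called in the hybrid (limma), where 10.6% of all symbols were called higher and 14.0% lower, and 1 of the 5, PER2, had an unadjusted p below 0.05. Between the parents, 1 was higher and 3 were lower in P. vachelli, where 23.9% of all symbols were called higher and 24.7% lower. Against the mid-parent 1 was higher and 0 lower, where 4.61% of all symbols were called higher and 6.20% lower. The median log2 difference of the 5 symbols was 0.61 for hybrid minus P. vachelli (all symbols -0.05), 0.16 for hybrid minus P. fulvidraco (all symbols -0.05), and -0.45 for P. vachelli minus P. fulvidraco (all symbols -0.01). These comparisons share libraries, and the hybrid comparisons against each parent use the same hybrid libraries. Groups without overlap were common among all tested symbols. They made up 46.7% in hybrid against P. vachelli, 39.8% in hybrid against P. fulvidraco and 60.4% between the parents, both directions together.

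**Figure D2:**
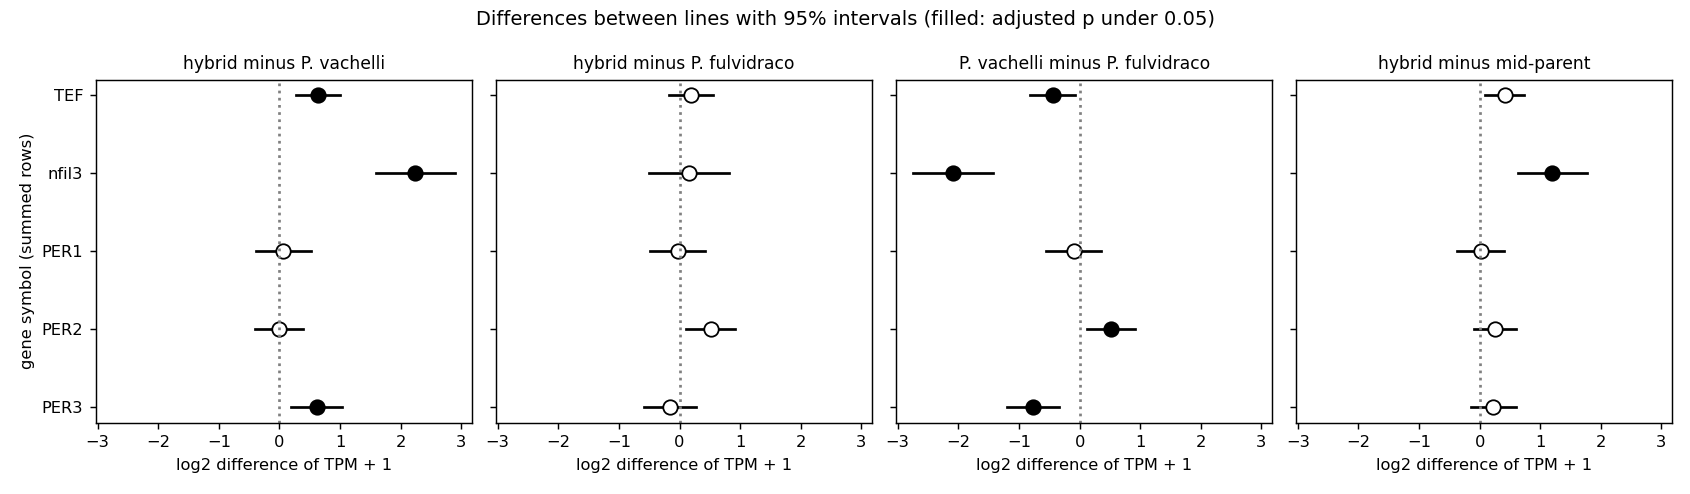
Log2 difference of TPM + 1 (x axis) for each gene symbol in each comparison, with 95% intervals as lines; filled points passed limma's test at an adjusted p of 0.05. The nfil3 points at 2.24 and -2.09 stand farthest from 0, and no point is filled for hybrid minus P. fulvidraco.

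As levels per length, nfil3 stood highest of the 5 symbols over all libraries, with a mean of 51.8 TPM and rank 907 of 11135 symbols. PER1 (29.0 TPM, rank 1502) and PER2 (28.5 TPM, rank 1524) followed, then TEF (19.3 TPM, rank 2178) and PER3 (5.45 TPM, rank 5741). In P. vachelli the order was another: PER2 and PER1 were above nfil3, whose range there held the whole range of TEF. The order also depends on the grouping of rows. By protein description, the means over all libraries were 45.1 TPM for PER2, 23.3 TPM for PER3, 12.9 TPM for TEF and 9.85 TPM for PER1. The 5 symbols summed to 147 to 182 TPM in hybrid, 88.9 to 95.6 TPM among P. vachelli and 125 to 184 TPM among P. fulvidraco libraries. Within P. fulvidraco, library 3 held the highest value of every one of the 5 sums. In the hybrid, library 3 was highest for PER1 and PER3, library 2 for TEF and PER2, and library 1 for nfil3.

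Marker sums of other cells moved with some of these lines. Acinar pancreas markers were lowest in P. vachelli, as TEF, nfil3 and PER3 were, and lymphocyte and macrophage markers (7 of 13 in the table) summed to 40.7 to 62.3 TPM in hybrid, 35.3 to 38.6 TPM among P. vachelli and 37.5 to 56.8 TPM among P. fulvidraco libraries. The erythrocyte marker sum, which is nearly all HBA and HBB, was lowest in P. fulvidraco with no overlap, as PER2 was. The list did not move as one, since ALAS2 averaged 20.2 TPM in hybrid, 11.4 TPM among P. vachelli and 26.7 TPM among P. fulvidraco libraries, and 1 of its 7 genes was called higher and 1 lower in P. vachelli against P. fulvidraco. Endothelial markers (11 of 12 in the table) went another way, with 39.69 to 62.16 TPM in hybrid, 59.71 to 68.14 TPM among P. vachelli and 45.09 to 65.04 TPM among P. fulvidraco libraries. Muscle and fat markers (5 of 12 in the table) summed to 18.22 to 47.08 TPM in hybrid, 26.55 to 39.81 TPM among P. vachelli and 20.79 to 26.93 TPM among P. fulvidraco libraries. The part of these cells in the clock gene differences was not tested.

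The 15 rows did not all follow their sums. TEF held rows that differed in opposite directions. The largest over all libraries, though not by mean in P. fulvidraco, was TRINITY_DN26106_c1_g1, which is described in the table as D site-binding protein (DBP), the sister of TEF. It had 10.57, 12.57 and 11.69 TPM in hybrid libraries, 6.25, 6.40 and 5.43 TPM in P. vachelli libraries, and 7.86, 7.59 and 7.42 TPM in P. fulvidraco libraries. Every hybrid library was above every library of both parents, and the P. vachelli libraries were the lowest. The difference was 0.84 ± 0.11 for hybrid minus P. vachelli (limma adjusted p = 0.000910 over all rows), 0.55 ± 0.11 for hybrid minus P. fulvidraco (limma adjusted p = 0.0109) and 0.69 ± 0.10 for hybrid minus mid-parent (limma adjusted p = 0.00380). It was the only one of the 15 rows called above both parents, as were 0.863% of all 51225 tested rows. The call against P. fulvidraco held in 18 of 19 alternatives and was lost without P. fulvidraco 1 and 2 together, with limma adjusted p = 0.110.

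The other TEF rows are described as TEF-like. TRINITY_DN21248_c1_g1 had 6.15, 9.57 and 7.65 TPM in hybrid libraries, 3.01, 3.07 and 3.40 TPM in P. vachelli libraries, and 5.05, 8.54 and 14.66 TPM in P. fulvidraco libraries. It was low in P. vachelli with no overlap and wide within P. fulvidraco (hybrid minus P. vachelli 1.06 ± 0.31, limma adjusted p = 0.0323; P. vachelli minus P. fulvidraco -1.22 ± 0.31, limma adjusted p = 0.00998). TRINITY_DN18164_c0_g1 went the other way, with 4.03, 3.40 and 3.59 TPM in hybrid libraries, 5.38, 5.50 and 4.94 TPM in P. vachelli libraries, and 3.01, 3.45 and 3.71 TPM in P. fulvidraco libraries. P. vachelli was above both other lines here (P. vachelli minus P. fulvidraco 0.52 ± 0.14, limma adjusted p = 0.0118; hybrid minus P. vachelli -0.43 ± 0.14, limma adjusted p = 0.0459). Leaving out hybrid 2, hybrid 3 or any 1 P. vachelli library ended the call of TRINITY_DN21248_c1_g1 in hybrid against P. vachelli (adjusted p = 0.0681 to 0.0914), and leaving out any library but P. fulvidraco 1 ended that of TRINITY_DN18164_c0_g1 (adjusted p = 0.0512 to 0.137).

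Most nfil3 RNA came from TRINITY_DN19993_c1_g4, described as NFIL3-like. It made up 71.9% of the mean nfil3 sum in hybrid, 58.1% in P. vachelli and 78.1% in P. fulvidraco libraries. It had 58.95, 44.15 and 56.25 TPM in hybrid libraries, 5.80, 7.08 and 13.59 TPM in P. vachelli libraries, and 46.54, 44.31 and 64.45 TPM in P. fulvidraco libraries. The gap between P. vachelli and the other lines was 2.53 ± 0.28 for hybrid minus P. vachelli (limma adjusted p = 0.000303) and -2.49 ± 0.28 for P. vachelli minus P. fulvidraco (limma adjusted p = 0.000120). Hybrid minus mid-parent was 1.29 ± 0.24 (limma adjusted p = 0.0133), a call lost without hybrid 1 (adjusted p = 0.0535).

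The second nfil3 row, TRINITY_DN19819_c0_g1, is described as NFIL3 itself and varied within lines. It had 23.71, 8.03 and 24.73 TPM in hybrid libraries, 2.70, 4.60 and 6.05 TPM in P. vachelli libraries, and 13.54, 5.06 and 17.38 TPM in P. fulvidraco libraries. Hybrid 2 and P. fulvidraco 2 stood low in their lines, and P. fulvidraco 2 fell inside the P. vachelli range. Hybrid minus P. vachelli passed (1.77 ± 0.52, limma adjusted p = 0.0320) but not without hybrid 1, hybrid 3 or any 1 P. vachelli library (adjusted p = 0.0547 to 0.108). P. vachelli minus P. fulvidraco did not pass (-1.16 ± 0.52, limma adjusted p = 0.0877), and passed without hybrid 2 or without P. fulvidraco 2 (0.0245 to 0.0460). The third nfil3 row, of an uncharacterized protein, averaged 1.96 TPM in hybrid, 1.90 TPM among P. vachelli and 2.52 TPM among P. fulvidraco libraries and was called in no comparison.

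**Figure D3:**
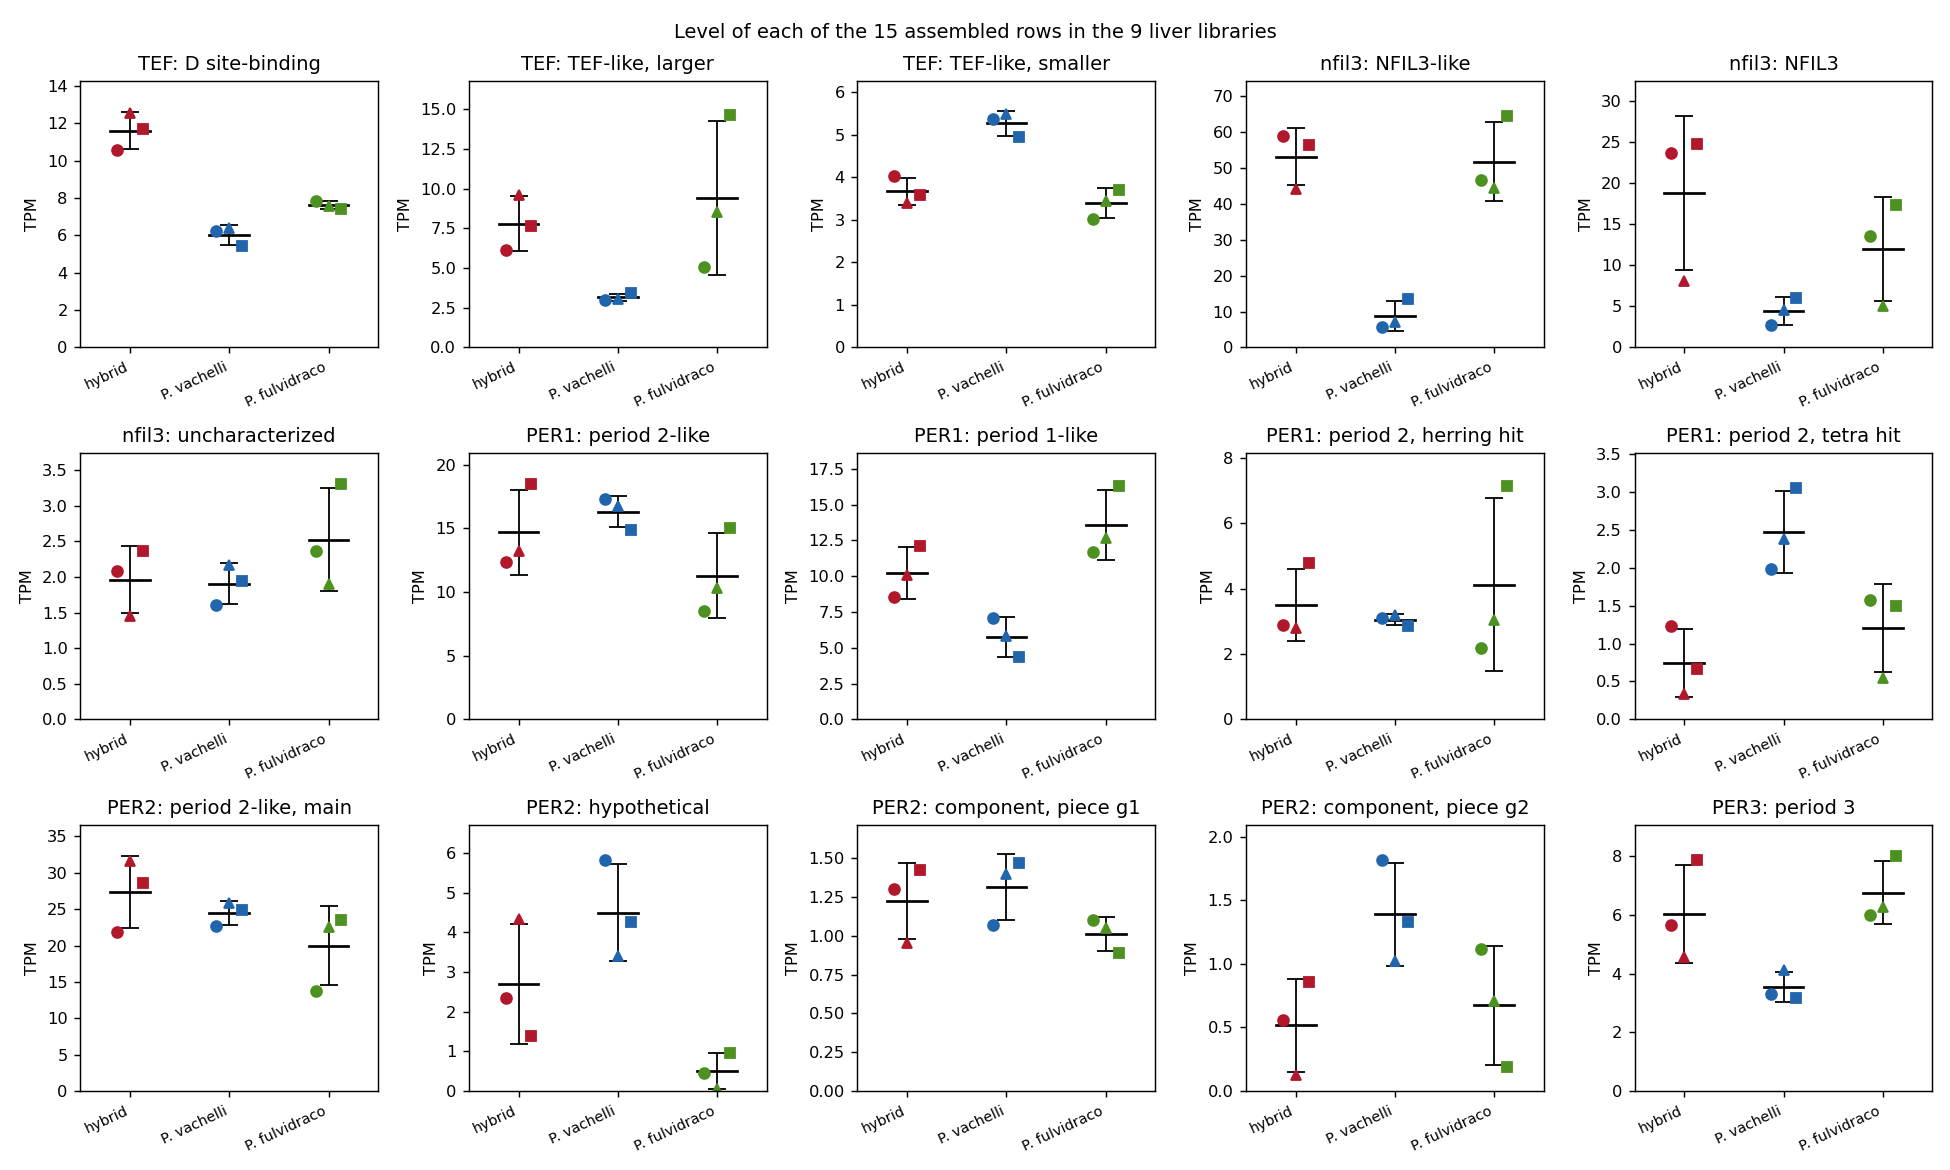
TPM of each of the 15 assembled rows by line (x axis: hybrid, P. vachelli, P. fulvidraco), titled by symbol and protein description; symbols are libraries 1 to 3, lines the mean and bars 1 SD (n = 3). The D site-binding row of TEF is highest in all hybrid libraries (10.57 to 12.57 TPM), and TEF and PER1 each hold rows that are high and rows that are low in P. vachelli.

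PER1 likewise hid opposite rows behind a sum that passed no test. The row described as period 1-like, TRINITY_DN27945_c1_g1, had 8.52, 10.05 and 12.12 TPM in hybrid libraries, 7.11, 5.79 and 4.32 TPM in P. vachelli libraries, and 11.68, 12.70 and 16.33 TPM in P. fulvidraco libraries. P. vachelli was lowest with no overlap (hybrid minus P. vachelli 0.75 ± 0.20, limma adjusted p = 0.0222; P. vachelli minus P. fulvidraco -1.12 ± 0.20, limma adjusted p = 0.00155). Without hybrid 3, P. vachelli 2 or P. vachelli 3 the call of hybrid against P. vachelli was lost (adjusted p = 0.0602 to 0.0799). The row TRINITY_DN27946_c0_g1, larger in all hybrid and P. vachelli libraries but smaller in all P. fulvidraco libraries and named PER1 but described as period 2-like, had 12.31, 13.23 and 18.49 TPM in hybrid libraries, 17.26, 16.76 and 14.90 TPM in P. vachelli libraries, and 8.50, 10.34 and 14.99 TPM in P. fulvidraco libraries. All 3 lines overlapped, and the difference between P. vachelli and P. fulvidraco (0.53 ± 0.21) missed the threshold (limma adjusted p = 0.0610). It passed without hybrid 3 or without P. fulvidraco 3 (0.0123 to 0.0435).

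Both remaining PER1 rows are low and described as period 2. TRINITY_DN13109_c0_g1 had 1.23, 0.34 and 0.67 TPM in hybrid libraries, 1.99, 2.38 and 3.06 TPM in P. vachelli libraries, and 1.58, 0.54 and 1.49 TPM in P. fulvidraco libraries. P. vachelli was above both other lines, with hybrid minus P. vachelli at -1.01 ± 0.29 (limma adjusted p = 0.0289), lost without hybrid 2, hybrid 3 or any 1 P. vachelli library (adjusted p = 0.0556 to 0.104). TRINITY_DN15924_c1_g1 averaged 3.49 TPM in hybrid, 3.05 TPM among P. vachelli and 4.12 TPM among P. fulvidraco libraries and was called in no comparison.

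PER2 RNA came mainly from TRINITY_DN15732_c1_g1, described as period 2-like, at 86.1% of the mean sum in hybrid, 77.2% in P. vachelli and 90.1% in P. fulvidraco libraries. It had 21.90, 31.63 and 28.62 TPM in hybrid libraries, 22.64, 25.85 and 24.84 TPM in P. vachelli libraries, and 13.77, 22.62 and 23.54 TPM in P. fulvidraco libraries. The ranges overlapped and no comparison passed (hybrid minus P. fulvidraco 0.46 ± 0.21, limma adjusted p = 0.153). TRINITY_DN18341_c1_g2, described as a hypothetical protein of the common carp, had 2.34, 4.35 and 1.39 TPM in hybrid libraries, 5.82, 3.41 and 4.27 TPM in P. vachelli libraries, and 0.46, 0.06 and 0.97 TPM in P. fulvidraco libraries. P. fulvidraco was near 0 and below both other lines (hybrid minus P. fulvidraco 1.27 ± 0.35, limma adjusted p = 0.0339; P. vachelli minus P. fulvidraco 1.90 ± 0.35, limma adjusted p = 0.00194). The first of these calls was lost without hybrid 1, hybrid 2, P. vachelli 3, P. fulvidraco 1 or P. fulvidraco 2 (adjusted p = 0.0528 to 0.109). The other PER2 rows, pieces of 1 assembled component, averaged 1.22 and 0.517 TPM in hybrid, 1.31 and 1.39 TPM among P. vachelli and 1.01 and 0.673 TPM among P. fulvidraco libraries and were called in no comparison.

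**Figure D4:**
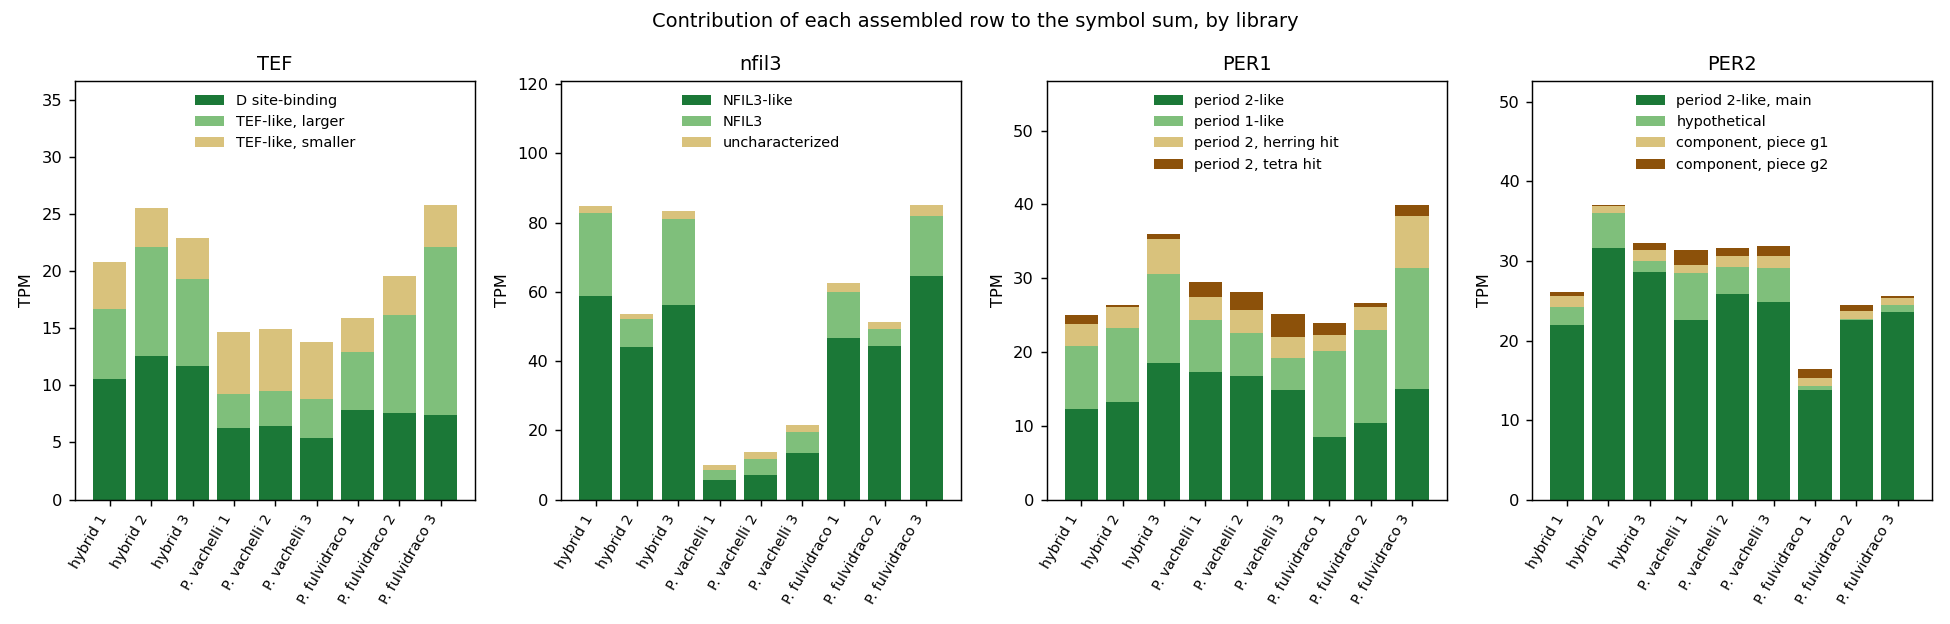
Stacked TPM of the rows of TEF, nfil3, PER1 and PER2 in each library (x axis: 9 libraries; colours: rows by protein description). In P. vachelli the TEF-like row of 4.94 to 5.50 TPM takes a larger share of a smaller sum, and the NFIL3-like row makes most of the nfil3 sum in all 9 libraries.

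Across rows, 6 of the 15 were called higher and 2 lower in hybrid against P. vachelli, where 15.5% of all tested rows were called higher and 14.6% lower. These 8 calls numbered 2 without hybrid 3, P. vachelli 2 or P. vachelli 3, 3 without P. vachelli 1, 5 without hybrid 1 or hybrid 2, and 6 to 7 without any 1 P. fulvidraco library. Against P. fulvidraco 2 were higher and 0 lower in the hybrid (11.9% of all rows higher and 9.88% lower). Between the parents 2 were higher and 4 lower in P. vachelli (27.4% of all rows higher and 26.9% lower), a share of member rows below that of rows at large. Against the mid-parent 2 were higher and 0 lower (5.64% of all rows higher and 2.87% lower). All 15 rows passed the filter of at least 1 TPM in at least 3 libraries. The shares of all tested rows count named and unnamed rows together, while the 15 rows are all named. Of all tested rows, 44.7% had no overlap in hybrid against P. vachelli, 36.9% in hybrid against P. fulvidraco and 63.3% between the parents.

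The table's protein descriptions sort these rows differently from its symbols. By description, PER1 kept 1 row, PER2 had 6 rows of which 3 carry the name PER1, and PER3 gained 2 rows that carry no name. Grouped that way, PER1 was lower in P. vachelli than in P. fulvidraco (-1.12 ± 0.19, limma adjusted p = 0.00133) and higher in hybrid than in P. vachelli (0.75 ± 0.19, limma adjusted p = 0.0187). PER2 so grouped passed no test (P. vachelli minus P. fulvidraco 0.38 ± 0.18, limma adjusted p = 0.116). PER3 so grouped had 25.4 TPM in hybrid, 16.4 TPM among P. vachelli and 28.1 TPM among P. fulvidraco libraries on average, with P. vachelli minus P. fulvidraco at -0.72 ± 0.18 (limma adjusted p = 0.00911). TEF without its D site-binding row, and with 2 further rows so described, did not pass for hybrid minus P. vachelli (0.37 ± 0.20, limma adjusted p = 0.202). It was still lower in P. vachelli than in P. fulvidraco (-0.56 ± 0.20, limma adjusted p = 0.0446), and hybrid minus P. fulvidraco changed sign, to -0.19 (limma adjusted p = 0.524). The direction for nfil3 and PER3 was the same under both ways of grouping.

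The larger unnamed period 3 row, TRINITY_DN23820_c0_g1, had 20.78, 14.14 and 16.43 TPM in hybrid libraries, 12.89, 12.88 and 12.89 TPM in P. vachelli libraries, and 13.12, 19.16 and 19.74 TPM in P. fulvidraco libraries. It was above the named PER3 row in every library and was called in no comparison. The smaller, TRINITY_DN23154_c1_g1, had 2.03, 1.08 and 3.53 TPM in hybrid libraries, is listed at 0 in all 3 P. vachelli libraries, and had 2.66, 3.23 and 6.13 TPM in P. fulvidraco libraries. These rows were picked by their description after the values of the named rows were known. By the RefSeq annotation of P. vachelli the families hold 2 tef genes, 2 dbp genes, 4 nfil3 genes and 1 each of per1, per2 and per3, so rows of 1 symbol can belong to different genes or to pieces of the same gene. How the quantification split reads between such relatives is not given in the sources used here.

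Other genes of the clock were looked at beside the 5 symbols. Of the listed activators, repressors and bZIP relatives, 13 had a tested sum. Of these, 3 were called higher and 1 lower in hybrid against P. vachelli, where 30.5% of all symbols were called in either direction. In hybrid against P. fulvidraco 1 was higher and 1 lower (24.6% of all symbols called), and in P. vachelli against P. fulvidraco 2 were higher and 3 lower (48.6% of all symbols called). Their median log2 difference was -0.03 for hybrid minus P. vachelli (all symbols -0.05), -0.0022 for hybrid minus P. fulvidraco (all symbols -0.05) and 0.18 for P. vachelli minus P. fulvidraco (all symbols -0.01). The counts are no result about clock genes as a group, and the genes below are given for their own values.

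The sum named NR1D1 had the largest difference low in P. vachelli among these 13. NR1D1 is REV-ERB alpha, which represses ARNTL and, in mouse liver, Nfil3, but 1 of the 3 rows of the sum, TRINITY_DN26900_c0_g1, is described as NR1D2-like. That row averaged 6.91 TPM in hybrid, 1.83 TPM among P. vachelli and 11.0 TPM among P. fulvidraco libraries, and all 3 rows were below both other lines in P. vachelli with no overlap. Of all tested rows, 63.3% had no overlap between the parents and 44.7% had none between hybrid and P. vachelli. The sum had 16.02, 16.03 and 20.52 TPM in hybrid libraries, 4.05, 4.35 and 5.51 TPM in P. vachelli libraries, and 15.56, 16.44 and 22.96 TPM in P. fulvidraco libraries. P. vachelli was far below the others, which overlapped (hybrid minus P. vachelli 1.72 ± 0.17, limma adjusted p = 0.000198; P. vachelli minus P. fulvidraco -1.77 ± 0.17, limma adjusted p = 4.97e-05). BHLHE41, a repressor of CLOCK and ARNTL activity, averaged 11.7 ± 0.949 TPM in the hybrid, 6.73 ± 0.581 TPM for P. vachelli and 13.6 ± 0.563 TPM for P. fulvidraco (SD, n = 3 each), with P. vachelli minus P. fulvidraco at -0.92 ± 0.11 (limma adjusted p = 0.000121). The sums of the relatives NR1D2 and BHLHE40 did not go that way. NR1D2 averaged 16.2 TPM in hybrid, 16.0 TPM among P. vachelli and 10.1 TPM among P. fulvidraco libraries. BHLHE40 averaged 11.3 TPM in hybrid, 10.4 TPM among P. vachelli and 7.53 TPM among P. fulvidraco libraries. Neither was called between the parents. HLF, the PAR bZIP relative of TEF with 3 rows of which 1 is described as TEF-like, averaged 22.5 ± 4.71 TPM in the hybrid, 13.5 ± 1.09 TPM for P. vachelli and 33.8 ± 3.35 TPM for P. fulvidraco (SD, n = 3 each). The hybrid sum lay between its parents and differed from both (hybrid minus P. vachelli 0.68 ± 0.15, limma adjusted p = 0.00831; hybrid minus P. fulvidraco -0.58 ± 0.15, limma adjusted p = 0.0208), though the second call was lost without hybrid 1, hybrid 2 or P. fulvidraco 2 (adjusted p = 0.0645 to 0.0767). Its main rows were unlike. TRINITY_DN21243_c3_g1 averaged 8.25 TPM in hybrid, 6.87 TPM among P. vachelli and 18.8 TPM among P. fulvidraco libraries, and the hybrid overlapped P. vachelli. TRINITY_DN25975_c1_g2 averaged 13.2 TPM in hybrid, 6.0 TPM among P. vachelli and 14.0 TPM among P. fulvidraco libraries, and the hybrid overlapped P. fulvidraco.

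CIART, a repressor that binds CLOCK and ARNTL, was low in P. fulvidraco, as PER2 was. It had 7.67, 11.49 and 7.48 TPM in hybrid libraries, 12.84, 12.82 and 9.25 TPM in P. vachelli libraries, and 2.54, 1.86 and 2.14 TPM in P. fulvidraco libraries. Hybrid and P. vachelli overlapped far above P. fulvidraco (hybrid minus P. fulvidraco 1.62 ± 0.19, limma adjusted p = 0.000722; P. vachelli minus P. fulvidraco 1.98 ± 0.19, limma adjusted p = 4.13e-05). CRY1, the partner of the PER proteins, averaged 53.4 ± 6.32 TPM in the hybrid, 70.1 ± 2.02 TPM for P. vachelli and 68.0 ± 8.33 TPM for P. fulvidraco (SD, n = 3 each). The CRY1 sum was below P. vachelli in the hybrid (-0.39 ± 0.12, limma adjusted p = 0.0313), but not without hybrid 1, hybrid 2 or any 1 P. vachelli library (adjusted p = 0.0616 to 0.0978). It pools 8 rows, some with opposite line patterns. TRINITY_DN25150_c2_g1 averaged 19.1 TPM in hybrid, 7.14 TPM among P. vachelli and 35.7 TPM among P. fulvidraco libraries. TRINITY_DN25150_c2_g2 averaged 6.87 TPM in hybrid, 26.5 TPM among P. vachelli and 3.56 TPM among P. fulvidraco libraries. Of the 5 measured activators, ARNTL, CLOCK, NPAS2 and RORA were called in no comparison. RORB was higher in P. vachelli than in P. fulvidraco (0.40 ± 0.13, limma adjusted p = 0.0297), a call lost without P. vachelli 1, P. vachelli 2, P. fulvidraco 1 or P. fulvidraco 2 (adjusted p = 0.0551 to 0.108). ARNTL averaged 9.51 ± 0.565 TPM in the hybrid, 12.0 ± 3.81 TPM for P. vachelli and 11.3 ± 0.639 TPM for P. fulvidraco (SD, n = 3 each), with P. vachelli 2 alone at 16.37 TPM.

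**Figure D5:**
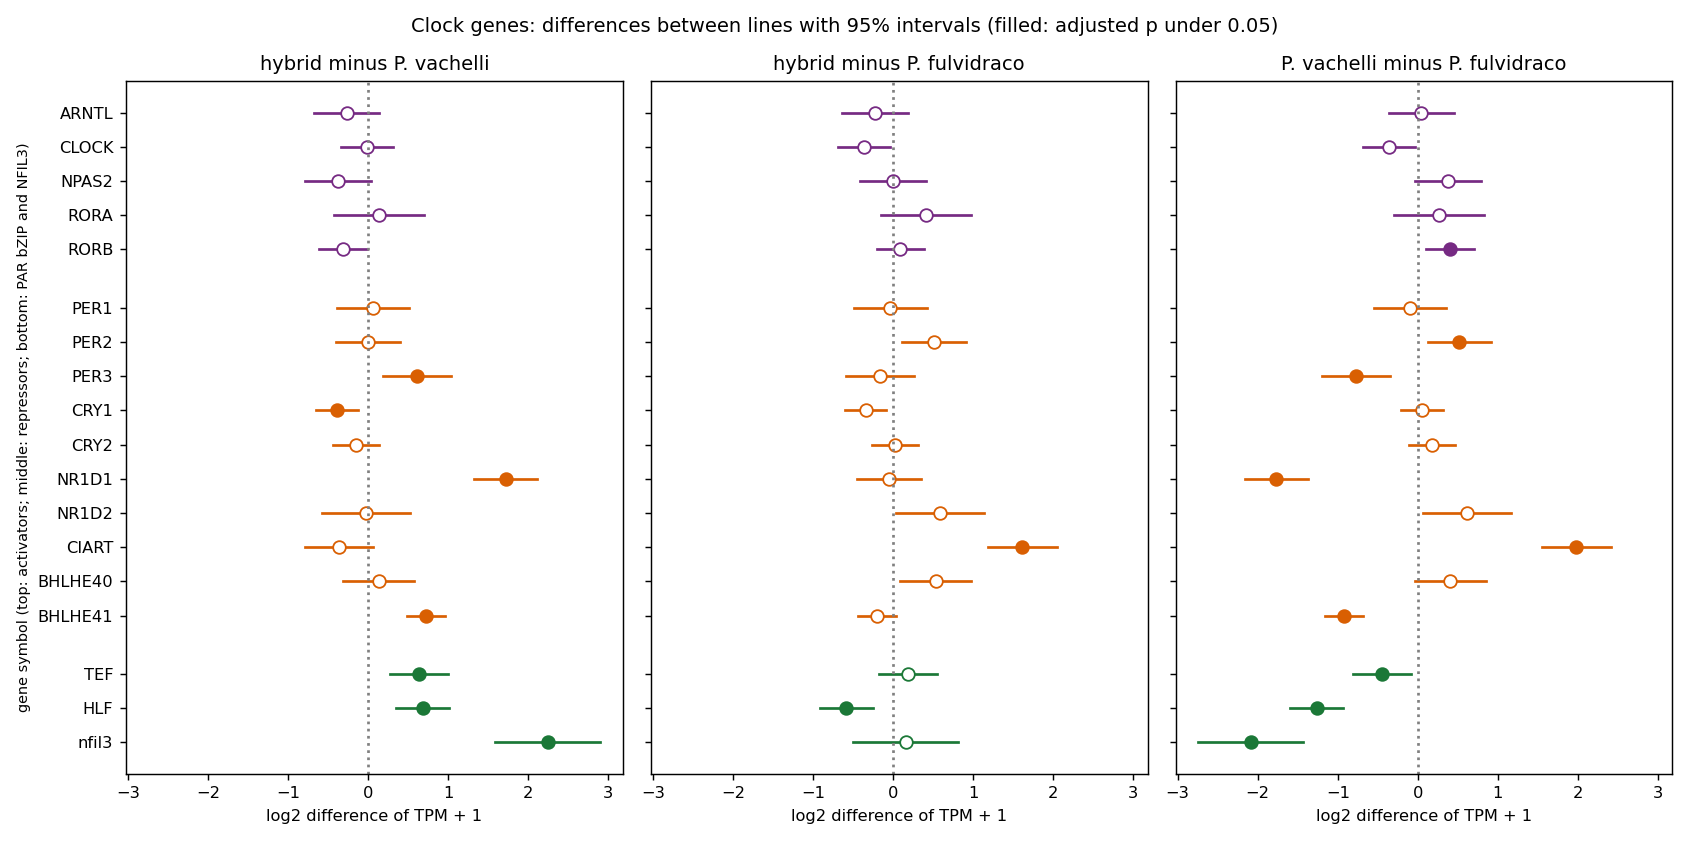
Log2 difference of TPM + 1 (x axis) with 95% intervals for the 13 other clock genes and the 5 symbols in 3 comparisons, activators at the top, repressors in the middle and bZIP factors below; filled points passed limma's test at an adjusted p of 0.05. nfil3 and NR1D1 (-1.77) lie far to the left and CIART (1.98) far to the right for P. vachelli minus P. fulvidraco, where RORB (0.40) is the only filled activator.

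Genes of inputs that reach the clock were looked at for the same reason, that hour, light and feeding are not given. Of 13 tested kinases, ligases and other regulators of clock proteins, 1 was higher and 2 lower in hybrid against P. vachelli, 2 higher and 2 lower in hybrid against P. fulvidraco, and 5 higher and 4 lower in P. vachelli against P. fulvidraco. The shares of all symbols called in either direction, 30.5%, 24.6% and 48.6% in the same order of comparisons, apply to these counts and to those that follow. Of 4 tested symbols listed for light-induced DNA repair (PHR, CPD, XPC and NEIL1), 2 were higher in P. vachelli than in P. fulvidraco. These were PHR, the photolyase gene (0.65 ± 0.16, limma adjusted p = 0.00862), and NEIL1, a base excision glycosylase (0.61 ± 0.11, limma adjusted p = 0.00181). The list was matched by symbol only, and CPD may stand for a gene outside DNA repair. Of 11 tested immediate early genes, 0 were called in any comparison (limma), and 1 had an unadjusted p below 0.05 in hybrid against P. vachelli and 0 in the others.

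Of 11 tested glucocorticoid-responsive genes, 3 were higher and 0 lower in hybrid against P. vachelli, 0 higher and 3 lower in hybrid against P. fulvidraco, and 0 higher and 4 lower in P. vachelli against P. fulvidraco. Of all symbols 13.7% were higher and 16.9% lower in the first comparison, 10.6% and 14.0% in the second, and 23.9% and 24.7% in the third. PER1 is itself among these 11 genes and was called in no comparison. FKBP5, a chaperone partner of the glucocorticoid receptor, averaged 104 ± 27.4 TPM in the hybrid, 68.2 ± 3.91 TPM for P. vachelli and 198 ± 42.3 TPM for P. fulvidraco (SD, n = 3 each), with P. vachelli minus P. fulvidraco at -1.50 ± 0.20 (limma adjusted p = 0.000317). Of 9 tested feeding-responsive genes, 2 were higher in hybrid against P. vachelli, 2 higher and 1 lower in hybrid against P. fulvidraco, and 2 lower in P. vachelli against P. fulvidraco. The part of hour, light or meals in any of these differences was not tested.

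By the root mean square difference between centred log2 profiles over the 9 libraries, the symbols nearest to nfil3 among 10550 were NR1D1 (0.32), TMEM56-B (0.32) and TUFT1 (0.37). TEF lay nearest to MICAL1, MARCO and PFN1 (0.10 each, on the log2 scale). For PER1 the nearest were SYPL2 (0.07), ITPK1 (0.09) and YRK (0.09), for PER2 NCF4 (0.11), YWHAG (0.12) and ENO1 (0.12), and for PER3 LONP2 (0.09), ZMYM4 (0.11) and ETHE1 (0.13). The profile of nfil3 had an SD over the 9 libraries of 1.14 on the log2 scale, and those of the other 4 symbols had 0.24 to 0.41.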

How the data were processed

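The deposited values are TPM, computed by the authors per assembled gene and library. Per the submitters' processing notes, cutadapt and FastQC were used, with no version given. The identifiers are of the Trinity form. The quantifier, the assembly's settings and the strand of the libraries: not given in the sources used here. Columns were matched to libraries by title, and 0 value columns had no sample. TPM keep no depth, so the depth is unknown and no counting interval is given. The extraction text of the labels speaks of adipose, and the tissue label, liver, was followed.

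The members and lists were chosen with earlier results of these data known. Rows reaching 1 TPM in 3 or more libraries (51225 of 57710) were tested with limma 3.58.1 (R 4.3.3), with an intensity trend, on log2(TPM + 1), which understates changes of low genes. There was 1 fit of all 9 libraries, 6 residual degrees of freedom, two-sided tests and Benjamini-Hochberg adjustment over the whole table at 0.05. The same fit was run on the sums of 10813 symbols. The mid-parent is the mean of the parental coefficients. The fits were tested on simulated data.

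Named were every member row and sum, genes of the lists, in each clock list up to 4 of smallest p, and the 3 symbols of nearest profile to each member sum (mean of at least 1 TPM). Same-numbered libraries did not deviate together, so the replicate number was not used as a pairing. Alternatives were other pseudocounts, filters and scalings, no trend, only the compared groups, a replicate block, each library left out, P. fulvidraco 1 and 2 left out together, and a linear mid-parent. Grouping rows by protein description and leaving out the highest row of a symbol were chosen after seeing the data. Promoter motifs were not analysed here, and no coordinates are given, since the build of the files is not known.

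Within-line correlations of log2(TPM + 1) across all tested rows were 0.851 to 0.881 in hybrid, 0.926 to 0.937 in P. vachelli and 0.893 to 0.933 in P. fulvidraco pairs, and no 2 libraries were alike enough to be 1 library. The values of 1 gene that was tested are not reported here.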

Additional observations from a re-analysis of the deposited data

How the results depend on the processing

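No comparison of a member sum or row that was called reversed its direction. Over all alternatives, 372 of 420 values of member sums and 1038 of 1112 of member rows stayed on the same side of the threshold. Calls were lost in 35 sum and 62 row values and gained in 13 and 12, and the cause was not tested. Some differences that were not called changed sign, as the TEF sum did for hybrid minus P. fulvidraco, which ranged from -0.19 to 0.36. Called member rows in hybrid against P. fulvidraco (2) numbered 1 with a filter of 5 TPM, a pseudocount of 5, quantile normalization, the replicate block or only the compared groups, and 0 without P. fulvidraco 1 and 2. Those in hybrid against P. vachelli (8) numbered 5 with a pseudocount of 5, and against the mid-parent (2) numbered 1 with a linear mid-parent or without P. fulvidraco 1 and 2. Called sums in hybrid against P. fulvidraco (0) numbered 1, PER2, with a filter of 5 TPM, quantile normalization, median-ratio scaling, the replicate block or without the highest row of each symbol. Against the mid-parent (1) they numbered 2 with quantile normalization and 0 with a linear mid-parent, without P. fulvidraco 1 and 2 or without the highest row. Over the whole table a filter of 5 TPM, which tests fewer rows, called 7735 rows in hybrid against P. vachelli, 6506 against P. fulvidraco and 10618 between the parents. Against the mid-parent a pseudocount of 0.1 called 7074 rows and one of 5 called 2880, against 4358 as reported. Without P. fulvidraco 1 and 2, which leaves that line 1 library assumed to vary like the others, 2884 rows and 949 sums were called in hybrid against P. fulvidraco, 2199 rows and 596 sums against the mid-parent, and 16960 rows between the parents. Leaving out 1 library in turn, called member rows ranged from 2 to 7 in hybrid against P. vachelli, 1 to 2 against P. fulvidraco, 6 to 7 between the parents and 1 to 2 against the mid-parent, and member sums from 1 to 3, 0 to 1, 2 to 3 and 0 to 2 in the same order of comparisons. Over the table these ranges were 9043 to 15265 rows and 2184 to 3385 sums in hybrid against P. vachelli, 6506 to 10527 and 1651 to 2547 against P. fulvidraco, 22141 to 27960 and 4419 to 5442 between the parents, and 2534 to 3910 and 450 to 1226 against the mid-parent. The share of mid-parent calls that were higher in the hybrid was 66.3% of rows as reported, 48.7% with quantile normalization and 27.4% with a linear mid-parent, and 42.7% of sums as reported, 55.3% with median-ratio scaling and 23.7% with a linear mid-parent. Same-numbered libraries had correlations of deviations of -0.112 to 0.014, so the block only names libraries. With 3 libraries a line and unknown depth, small differences may have been missed. With the hour of sampling unknown, line and hour cannot be told apart in those that were called.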
